A study of Rattus norvegicus with 12 samples.

Results

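A set of 10 genes of muscle breakdown was followed across the 4 groups of this RNA-seq series. They are the atrophy ubiquitin ligases Fbxo32 and Trim63, the FOXO transcription factors Foxo1 and Foxo3, and the autophagy genes Ulk1, Becn1, Map1lc3b, Gabarapl1, Sqstm1 and Bnip3. The 10 genes were chosen by name as the catabolic counterpart of the hypertrophic response, and each was the row of the deposited tables with that gene symbol. All 10 were among the 18483 genes listed and among the 13967 genes that passed the filter on low counts. Their expected counts lay between 139 and 19515 per sample.

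Muscle cells break down protein by the ubiquitin-proteasome system and by autophagy. Fbxo32 (atrogin-1) and Trim63 (MuRF1) mark muscle proteins for the proteasome, and both are known as targets of the FOXO factors, which AKT keeps out of the nucleus when growth signals are active. In autophagy, the ULK1 kinase and the Beclin 1 complex start a membrane, proteins of the LC3 and GABARAP families are attached to it, and receptors such as p62 (Sqstm1) and BNIP3 bring in the cargo. In the heart these systems are known to take part in the turnover of sarcomeres and mitochondria.

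RNA was sequenced from neonatal rat ventricular myocytes (NRVMs) of Sprague-Dawley rats, with 3 biological replicates in each of 4 groups, named siNeg and siSlc39a2 without PE, and siNeg PE and siSlc39a2 PE with it. All groups were transfected, with the control siRNA siNeg or with siSlc39a2, an siRNA of a single sequence against the zinc transporter Slc39a2. Phenylephrine (PE), an alpha-adrenergic agonist that induces hypertrophy, was given to the PE groups for 36 h starting 12 h after transfection, as the sample labels have it, and the study's culture methods give a longer exposure. The other groups were untreated. The myocytes came from minced ventricles of newborn rats and were enriched by density gradient, so other cells of the heart remain possible. No rat-by-rat origin of the replicates was given.

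The summed expected counts of a sample ran from 24065539 to 28603854. Slc39a2 had between 50 and 59 counts in siNeg, between 2 and 21 in siSlc39a2, between 95 and 198 in siNeg PE, and between 25 and 38 in siSlc39a2 PE. Levels are given as normalised counts (CPM), scaled by library size and by a TMM normalisation factor per sample. All 8 cardiomyocyte markers were above 3 counts in every sample. Their summed level ran from 30833 to 32196 CPM in siNeg and 22394 to 23161 in siSlc39a2. In the groups with PE it ran from 23902 to 25151 in siNeg PE and 19316 to 19786 in siSlc39a2 PE. The 8 fibroblast markers, all above 3 counts in every sample too, summed to between 13859 and 18345 CPM in siNeg, 5338 and 5643 in siSlc39a2, 9171 and 11754 in siNeg PE, and 3582 and 4949 in siSlc39a2 PE. The sum of the 6 macrophage markers ran from 18.3 to 22.0 CPM in siNeg, 12.3 to 13.8 in siSlc39a2, 11.2 to 12.3 in siNeg PE, and 7.82 to 8.50 in siSlc39a2 PE. That of the 4 smooth muscle markers ran from 1928 to 1984 CPM in siNeg, 751.6 to 760.7 in siSlc39a2, 1183 to 1533 in siNeg PE, and 1249.7 to 1370.2 in siSlc39a2 PE. The 6 endothelial markers summed to between 14.2 and 21.9 CPM, with overlapping groups. The fibroblast, macrophage and cardiomyocyte sums were lower with the knockdown and with PE, each without overlap. The smooth muscle sum was lower with PE in siNeg cells and with knockdown in the absence of PE, higher with PE in knockdown cells, and overlapped between the groups with PE. Their part in the results that follow was not tested. Fewer cells of a type, less RNA per cell and changed levels of single marker genes cannot be told apart by sums in these bulk samples. Markers of 1 list could move apart, as Cnn1 (log2 2.57) and Tagln (log2 -1.48) did with PE in siNeg cells. Fibroblast markers did so too in that comparison, with Pdgfra at log2 0.74 (counts not whole numbers) and Col3a1 at -0.70. The sums are weighted to the most abundant genes. The median log2 fold change of the cardiomyocyte markers was 0.09 with PE in either siRNA arm, although their sums fell. Myh6, whose counts were not whole numbers, went from 15858 to 8199 CPM with PE in siNeg cells.

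Groups were compared by the quasi-likelihood test of edgeR on all genes tested, with Benjamini-Hochberg adjustment, and a gene was called at an adjusted p below 0.05. PE against no PE in siNeg cells called 6 of the 10 genes, 1 higher and 5 lower, where 49.7% of all genes tested were called. Knockdown without PE called 6, 4 higher and 2 lower, against 49.2% of all genes. Knockdown with PE called 7, 3 higher and 4 lower, against 57.3%, and PE in knockdown cells called 8, 1 higher and 7 lower, against 60.0%. With 10 genes, nothing particular to them is read from these shares. The median log2 fold change of the 10 genes was -0.28 for PE in siNeg cells, 0.08 for knockdown, -0.08 for knockdown with PE and -0.52 for PE in knockdown cells, and the median of all genes tested lay between -0.02 and 0.01 in these comparisons. At an absolute log2 fold change above 1 as well, 0 of the 10 genes were called for PE in siNeg cells (6.60% of all genes), for knockdown (9.78%) and for knockdown with PE (11.6%), and 1, Ulk1, for PE in knockdown cells (10.5%). The samples of the groups compared did not overlap for 7 genes with PE in siNeg cells (59.8% of all genes), 7 with knockdown (58.5%), 8 with knockdown under PE (63.5%) and 9 with PE in knockdown cells (65.2%). These comparisons share groups, so they are not independent of each other.

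**Figure D1:**
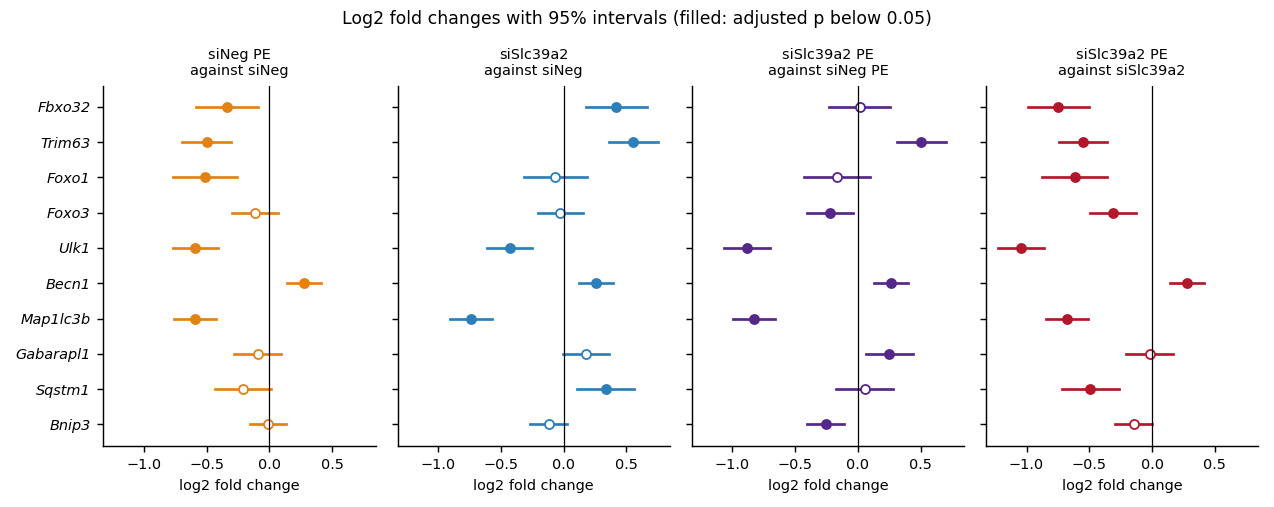
Log2 fold change of the 10 genes (rows) in the 4 comparisons (panels), with 95% confidence intervals from the fit of all 12 samples (3 per group). Filled points passed the test at an adjusted p below 0.05. Trim63 lies below 0 for PE and above 0 for knockdown, Map1lc3b and Ulk1 lie below 0 in every panel, and Becn1 lies above 0 in every panel.

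Both atrophy ligases fell with PE in either siRNA arm and rose with the knockdown in the absence of PE, and Trim63 rose with the knockdown under PE too. Fbxo32 encodes the F-box protein of a ubiquitin ligase that is induced in muscle atrophy. Its level was 63.5, 71.8 and 67.8 CPM in the siNeg samples, 54.2, 55.6 and 50.7 in siNeg PE, 89.5, 88.5 and 93.9 in siSlc39a2, and 47.2, 49.2 and 65.7 in siSlc39a2 PE. The siSlc39a2 samples were above all others, and replicate 3 of siSlc39a2 PE stood apart from the other two of its group, within the siNeg range. Fbxo32 fell by 21.0% with PE in siNeg cells (log2 fold change -0.34, SE 0.11, edgeR adjusted p = 0.0191) and rose by 33.8% with knockdown (log2 0.42, SE 0.11, adjusted p = 0.00542). The call for PE in siNeg cells was lost without siNeg replicate 2 (-0.29, adjusted p = 0.0676) and without siNeg PE replicate 3 (-0.30, adjusted p = 0.0739). With PE in knockdown cells it fell by 40.4% (log2 -0.75, SE 0.11, adjusted p = 8.92e-05), and the siSlc39a2 PE samples did not overlap with siSlc39a2. Under PE, knockdown gave a log2 fold change of 0.01 (95% interval -0.23 to 0.26, adjusted p = 0.928), with overlapping samples.

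Trim63, the muscle RING finger ligase that acts on thick filament proteins, showed both effects at about the same size. The siNeg samples had 136, 121 and 118 CPM, siNeg PE 95.7, 84.5 and 85.0, siSlc39a2 187.5, 189.9 and 173, and siSlc39a2 PE 133, 132 and 112. No siNeg PE sample overlapped with another group, nor did a siSlc39a2 sample, while siSlc39a2 PE lay in and just below the siNeg range. PE lowered Trim63 by a log2 fold change of -0.50 in siNeg cells (SE 0.08, adjusted p = 4.85e-04) and -0.55 in knockdown cells (SE 0.08, adjusted p = 1.43e-04). Knockdown raised it by 46.8% without PE (log2 0.55, SE 0.08, adjusted p = 1.43e-04) and by 41.8% with PE (log2 0.50, SE 0.08, adjusted p = 2.63e-04). The group means of siNeg, 125 ± 9.92 CPM, and of siSlc39a2 PE, 125 ± 11.8 CPM (SD, n = 3), were nearly equal.

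**Figure D2:**
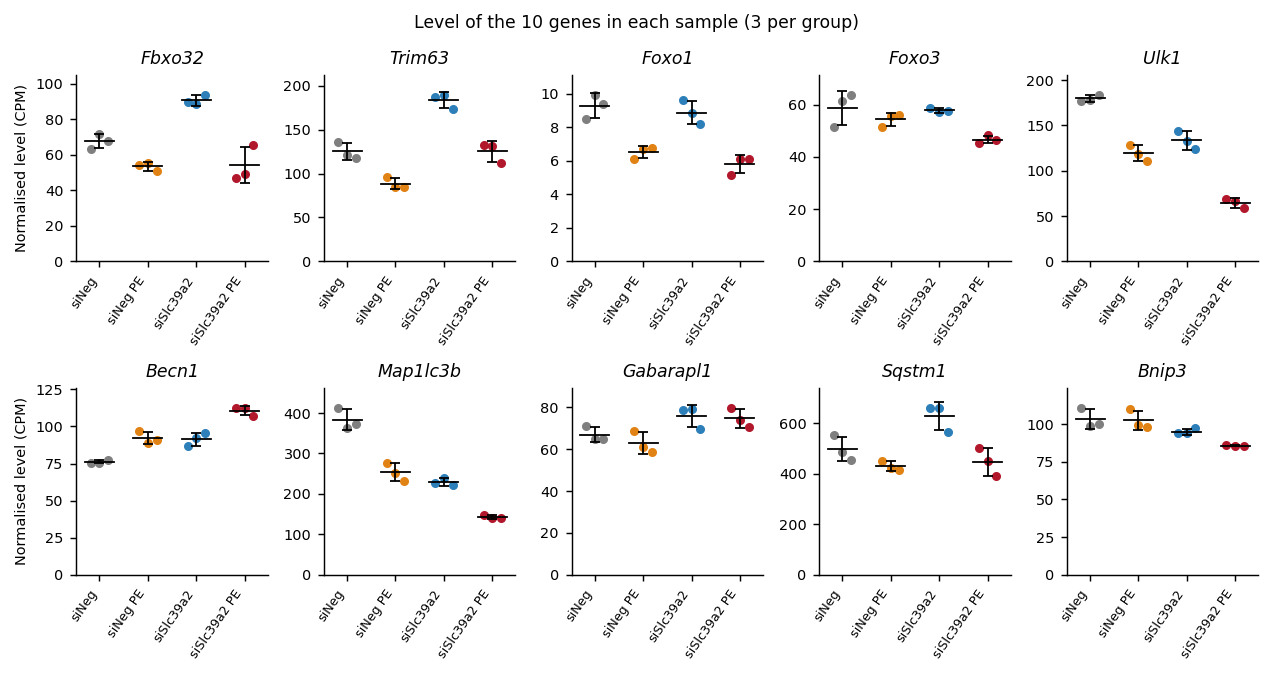
Level of each gene in CPM (vertical axis from 0) in the 12 samples, by group. Points are samples, horizontal lines are group means and bars are the SD (n = 3). Fbxo32, Trim63 and Sqstm1 are highest in siSlc39a2, Map1lc3b and Ulk1 lowest in siSlc39a2 PE, and Becn1 highest in siSlc39a2 PE.

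The promoter of Trim63 is shown because it was the only one of 7 member promoters with a FOXO-type motif. Promoter windows from 250 bases before to 50 bases after the start came from RefSeq (GRCr8, not the Rnor_6.0 build of the deposited tables) and held Trim63, Foxo1, Sqstm1, Map1lc3b, Gabarapl1, Bnip3 and Ulk1. Windows were searched on both strands for GTAAACA (FOXO), CACGTG (the E-box core of the TFEB element) and ACGTG (HIF core, which every CACGTG also holds). The FOXO motif was in 3.78% of all 33469 windows. The stretch upstream of the annotated Trim63 gene, chr5:151816986-151817208 on the plus strand, carries it in the reverse orientation (capitals), 205 bases before the start site of the window.
Trim63: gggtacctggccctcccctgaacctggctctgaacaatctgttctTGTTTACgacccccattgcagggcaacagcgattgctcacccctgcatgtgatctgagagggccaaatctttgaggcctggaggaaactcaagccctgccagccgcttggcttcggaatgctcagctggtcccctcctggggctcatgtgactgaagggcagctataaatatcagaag
A match of letters is a description and shows no binding.

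Foxo1 fell with PE in both siRNA arms, and Foxo3 passed the test for PE in knockdown cells only. Foxo1 was the least abundant of the 10 genes in FPKM. Its level was 8.53, 9.96 and 9.42 CPM in siNeg, 6.12, 6.68 and 6.75 in siNeg PE, 9.61, 8.87 and 8.19 in siSlc39a2, and 5.18, 6.11 and 6.11 in siSlc39a2 PE. Every sample with PE was below every sample without PE, in both siRNA arms. Foxo1 fell by 29.9% with PE in siNeg cells (log2 -0.51, SE 0.11, adjusted p = 0.00257) and by 34.8% in knockdown cells (log2 -0.62, SE 0.11, adjusted p = 5.20e-04). The knockdown gave -0.07 without PE (95% interval -0.32 to 0.19) and -0.17 with PE (-0.43 to 0.09), neither past the test.

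Foxo3, the factor best known for driving autophagy genes in muscle, moved less. Its level ran from 51.5 to 63.8 CPM in siNeg, 51.5 to 56.1 in siNeg PE, 57.1 to 58.8 in siSlc39a2, and 45.2 to 48.2 in siSlc39a2 PE. The last group lay below the other three with no overlap. Foxo3 fell by 19.4% with PE in knockdown cells (log2 -0.31, SE 0.08, adjusted p = 0.00471). With PE in siNeg cells its log2 fold change was -0.11 (adjusted p = 0.247), and without siNeg replicate 1 it was -0.20 (adjusted p = 0.0338). The PE effect on Foxo3 did not differ between the siRNA arms by the test (interaction -0.20, 95% interval -0.46 to 0.06, edgeR adjusted p = 0.434). Knockdown with PE was called at -0.22 (SE 0.08, adjusted p = 0.0291), and the adjusted p rose to between 0.0641 and 0.0845 when siNeg PE replicate 2 or 3 or siSlc39a2 PE replicate 1 or 3 was left out (log2 fold changes between -0.22 and -0.20).

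The autophagy starters Ulk1 and Becn1 went opposite ways. Ulk1 encodes the kinase that opens autophagy and that mTORC1 holds in check. The siNeg samples had 177, 179 and 184 CPM, siNeg PE 128, 119 and 111, siSlc39a2 144, 133 and 124, and siSlc39a2 PE 68.9, 67.0 and 58.6. Every siNeg sample was above all others and every siSlc39a2 PE sample was below all others, while siNeg PE and siSlc39a2 overlapped. Ulk1 fell by 33.6% with PE in siNeg cells (log2 -0.59, SE 0.08, adjusted p = 8.61e-05) and by 25.8% with knockdown (log2 -0.43, SE 0.08, adjusted p = 5.72e-04). It fell by 45.7% with knockdown under PE (log2 -0.88, SE 0.08, adjusted p = 1.43e-06) and by 51.4% with PE in knockdown cells (log2 -1.04, SE 0.08, adjusted p = 5.10e-07).

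Becn1 encodes Beclin 1, a subunit of the lipid kinase complex that nucleates the autophagosome. It had 75.6, 75.6 and 77.6 CPM in siNeg, 96.9, 89.2 and 90.8 in siNeg PE, 86.5, 92.4 and 95.3 in siSlc39a2, and 112, 113 and 107 in siSlc39a2 PE. The siNeg samples were lowest and the siSlc39a2 PE samples highest, without overlap, and the single-factor groups overlapped with each other. It rose in every comparison by a log2 fold change between 0.26 and 0.28 (SE 0.06 in each, adjusted p between 0.00143 and 0.00264), and the interaction was 0.00 (95% interval -0.19 to 0.19). The counts of Becn1 were not whole numbers, which can come from reads shared with another gene, so its changes are uncertain.

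The ATG8 genes did not move together. Map1lc3b encodes LC3B, the protein whose lipid-bound form marks autophagosomes. Its level was 413, 364 and 373 CPM in siNeg, 277, 252 and 233 in siNeg PE, 228, 239.7 and 221 in siSlc39a2, and 149, 139.7 and 141 in siSlc39a2 PE. The order was siNeg highest and siSlc39a2 PE lowest, each without overlap, with siNeg PE and siSlc39a2 overlapping between them. Map1lc3b fell by 33.8% with PE in siNeg cells (log2 -0.60, SE 0.07, adjusted p = 4.51e-05) and by 40.2% with knockdown (log2 -0.74, SE 0.07, adjusted p = 3.34e-06). It fell by 43.6% with knockdown under PE (adjusted p = 1.23e-06) and fell by 37.6% with PE in knockdown cells (adjusted p = 9.40e-06).

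Gabarapl1 encodes a GABARAP-type ATG8 protein that is also known as a FOXO target in muscle. Its samples had 71.1, 65.0 and 64.9 CPM in siNeg, 68.8, 60.96 and 58.8 in siNeg PE, 78.5, 79.2 and 69.6 in siSlc39a2, and 79.8, 73.8 and 70.7 in siSlc39a2 PE. Of the groups compared, only siSlc39a2 PE and siNeg PE did not overlap. PE gave log2 fold changes of -0.09 in siNeg cells (95% interval -0.28 to 0.09) and -0.02 in knockdown cells (-0.20 to 0.17). Gabarapl1 was called for knockdown with PE alone (log2 0.25, SE 0.08, adjusted p = 0.0175), and the adjusted p was between 0.0644 and 0.0809 without siNeg PE replicate 2 or 3 or siSlc39a2 PE replicate 1 (log2 fold changes between 0.20 and 0.23). Knockdown without PE gave 0.18 (adjusted p = 0.085), and 0.28 without siSlc39a2 replicate 3 (adjusted p = 0.0162).

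Sqstm1 rose with the knockdown in the absence of PE and fell with PE in knockdown cells. It encodes p62, which binds ubiquitinated cargo and LC3 and is itself degraded by autophagy. Its level was 552, 488 and 455 CPM in siNeg, 452, 424 and 416 in siNeg PE, 659, 660.9 and 566 in siSlc39a2, and 501, 449.9 and 390.0 in siSlc39a2 PE. The siSlc39a2 samples were above all others, siNeg PE was just below siNeg, and siSlc39a2 PE overlapped with both. Sqstm1 rose by 26.2% with knockdown (log2 0.34, SE 0.10, adjusted p = 0.0125), a call that was lost without siNeg replicate 3 (0.28, adjusted p = 0.0548). It fell by 28.9% with PE in knockdown cells (log2 -0.49, SE 0.10, adjusted p = 9.58e-04). PE in siNeg cells gave -0.21 (95% interval -0.44 to 0.02, adjusted p = 0.0898), and knockdown with PE gave 0.05 (-0.17 to 0.28).

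Bnip3, a mitophagy receptor of the outer mitochondrial membrane that is known to be induced by hypoxia, was nearly level. It ran from 98.7 to 111 CPM in siNeg, 97.9 to 109.9 in siNeg PE, 93.8 to 97.5 in siSlc39a2, and 85.5 to 86.1 in siSlc39a2 PE. The last group was below all others. Bnip3 was called for knockdown with PE alone, where it fell by 16.3% (log2 -0.26, SE 0.06, adjusted p = 0.00413). PE in knockdown cells gave -0.15 (SE 0.06, adjusted p = 0.0605) and PE in siNeg cells gave -0.01 (95% interval -0.16 to 0.14). Its counts were not whole numbers either, so these values are uncertain.

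Of the 7 member windows, that of Bnip3 alone held the E-box CACGTG, a motif found in 6.42% of all windows, and its sequence is shown for that reason. The upstream stretch chr1:203154963-203155212 (GRCr8, minus strand, printed from 5′ to 3′ of the gene) holds the motif, in capitals, 99 bases before the start site.
Bnip3: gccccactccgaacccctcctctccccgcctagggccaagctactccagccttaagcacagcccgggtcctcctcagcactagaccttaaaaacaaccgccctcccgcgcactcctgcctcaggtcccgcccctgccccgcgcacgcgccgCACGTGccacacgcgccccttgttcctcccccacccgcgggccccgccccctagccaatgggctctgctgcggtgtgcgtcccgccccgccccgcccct
The same letters make up both of its ACGTG matches. The window of Gabarapl1 held ACGTG as well, so that 2 of 7 member windows had it, against 19.3% of all windows.

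The knockdown and PE were next tested for unequal effects, as the knockdown effect with PE less that without PE. Of the 10 genes, 1 passed, where 3.61% of all genes tested did, 1.73% with a higher and 1.88% with a lower effect under PE, and 0.988% with an interaction above 1 in size as well. Ulk1 had an interaction of -0.45 on the log2 scale (SE 0.11, edgeR adjusted p = 0.0427), a decrease by knockdown that was larger with PE (-0.88) than without (-0.43). The adjusted p was above the threshold when any of 9 of the 12 samples was left out, between 0.0682 and 0.120 in those fits, with interactions between -0.48 and -0.38. These were all siNeg samples, replicates 1 and 2 of siNeg PE, replicates 1 and 2 of siSlc39a2, and replicates 2 and 3 of siSlc39a2 PE. Fbxo32 had an interaction of -0.41 (SE 0.15, adjusted p = 0.192), and without siSlc39a2 PE replicate 3, the sample that stood apart, it was -0.57 (adjusted p = 0.00900). The interaction was -0.05 for Trim63 (95% interval -0.32 to 0.22), -0.09 for Map1lc3b (-0.32 to 0.15) and -0.28 for Sqstm1 (-0.60 to 0.04). For Gabarapl1 it was 0.07 (-0.19 to 0.34). In limma on log2(FPKM + 1), the Map1lc3b interaction was -0.23 and passed the test (adjusted p = 0.0285), as did that of Bnip3 at -0.23 (adjusted p = 0.0268), against -0.14 in edgeR (95% interval -0.35 to 0.07). With the replicate block Sqstm1 passed at -0.29 (adjusted p = 0.0420).

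**Figure D3:**
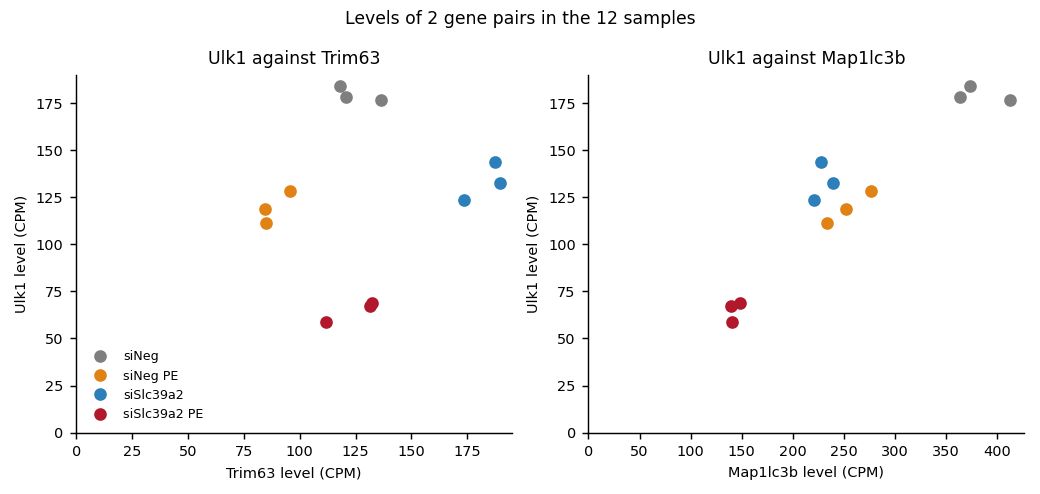
Levels in CPM of Ulk1 (vertical axes) against Trim63 and Map1lc3b (horizontal axes) in the 12 samples, coloured by group. Ulk1 and Map1lc3b drop together from siNeg to siSlc39a2 PE, while Trim63 is highest in siSlc39a2, where Ulk1 is between its levels in siNeg and siSlc39a2 PE.

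Pairs of members differed in how their log2 CPM moved over the 12 samples. Pearson's r was 0.955 for Map1lc3b and Ulk1, 0.887 for Trim63 and Sqstm1, and 0.733 for Fbxo32 and Trim63. It was 0.131 for Trim63 and Ulk1, -0.948 for Map1lc3b and Becn1, and -0.937 for Becn1 and Ulk1. These values describe 12 samples that fall into 4 groups and share their library scaling.

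Levels between genes were compared per length, in FPKM. In siNeg cells, Sqstm1 was highest at 254 ± 19.3 FPKM (SD, n = 3), followed by Map1lc3b at 224 ± 10.7. Trim63 (67.3 ± 3.78) and Bnip3 (64.0 ± 2.75) overlapped in their samples, and Gabarapl1 followed at 39.5 ± 1.21. Becn1 (36.1 ± 1.26) overlapped with Ulk1 (34.6 ± 1.28), and Foxo3 (9.65 ± 1.44) with Fbxo32 (9.31 ± 0.336). Foxo1 was last at 3.57 ± 0.341 FPKM. Trim63 was thus listed at a higher level per length than Fbxo32 in all groups. In siSlc39a2 PE cells the order differed in its middle. There Becn1 (55.7 ± 1.45) was above Gabarapl1 (46.9 ± 2.58), the reverse of siNeg, and overlapped with Bnip3 (56.5 ± 0.219). Ulk1 kept its place below Gabarapl1, at 13.2 ± 1.13 FPKM.

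Relatives of the ligases, FOXO factors, ATG8 genes, Ulk1 and Bnip3 were described beside them. Trim54 and Trim55 encode MuRF3 and MuRF2, the ligases nearest to MuRF1. Trim55 rose in every comparison, from 188 CPM in siNeg to 249 with PE, and from 273 in siSlc39a2 to 464 with PE (group means, log2 0.90 for knockdown with PE, SE 0.07). Trim54, whose counts were not whole, fell with PE in siNeg cells (log2 -0.53) and in knockdown cells (-0.94), and its group means were 306, 212, 361 and 189 CPM in the same order. The MuRF genes hence differed in direction with PE, Trim63 and Trim54 lower and Trim55 higher.

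The other FOXO genes fell with PE as well. Foxo4 had group means of 90.4, 63.1, 78.1 and 45.3 CPM in siNeg, siNeg PE, siSlc39a2 and siSlc39a2 PE, and Foxo6 had 10.04, 3.45, 6.83 and 1.69 CPM. Of the 4 FOXO genes Foxo6 fell most with PE, by a log2 fold change of -1.54 with PE in siNeg cells (SE 0.14) and -2.02 in knockdown cells (SE 0.16). Both also fell with knockdown in the absence of PE (Foxo4 -0.21, Foxo6 -0.56), where Foxo1 and Foxo3 did not pass the test.

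Among the ATG8 relatives, Map1lc3a and Gabarap fell in every comparison as Map1lc3b did. Map1lc3a had group means of 597, 455, 388 and 266 CPM and Gabarap 456, 328, 282 and 228 CPM, in the order given above, both with counts that were not whole. Gabarapl2 was called for PE in siNeg cells alone (log2 -0.29), also with counts that were not whole. Ulk2, the relative of Ulk1, was called for PE in knockdown cells alone (log2 0.43), and Fbxo25, the relative of Fbxo32, likewise (log2 -0.41). Bnip3l, the relative of Bnip3, passed in no comparison, with log2 fold changes between -0.26 and 0.20. Pink1 and Optn are no relatives of a member and were named for their large changes in the receptor and mitophagy list. Pink1, the kinase that marks damaged mitochondria for mitophagy, fell from 828 CPM in siNeg to 291 with PE (log2 -1.51, SE 0.12) and from 569.6 in siSlc39a2 to 162 with PE (log2 -1.81, SE 0.12). Optn, the gene of the receptor optineurin, rose with knockdown from 20.3 to 48.4 CPM (log2 1.26, SE 0.10) and from 31.4 to 72.7 CPM under PE (log2 1.21, SE 0.10).

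**Figure D4:**
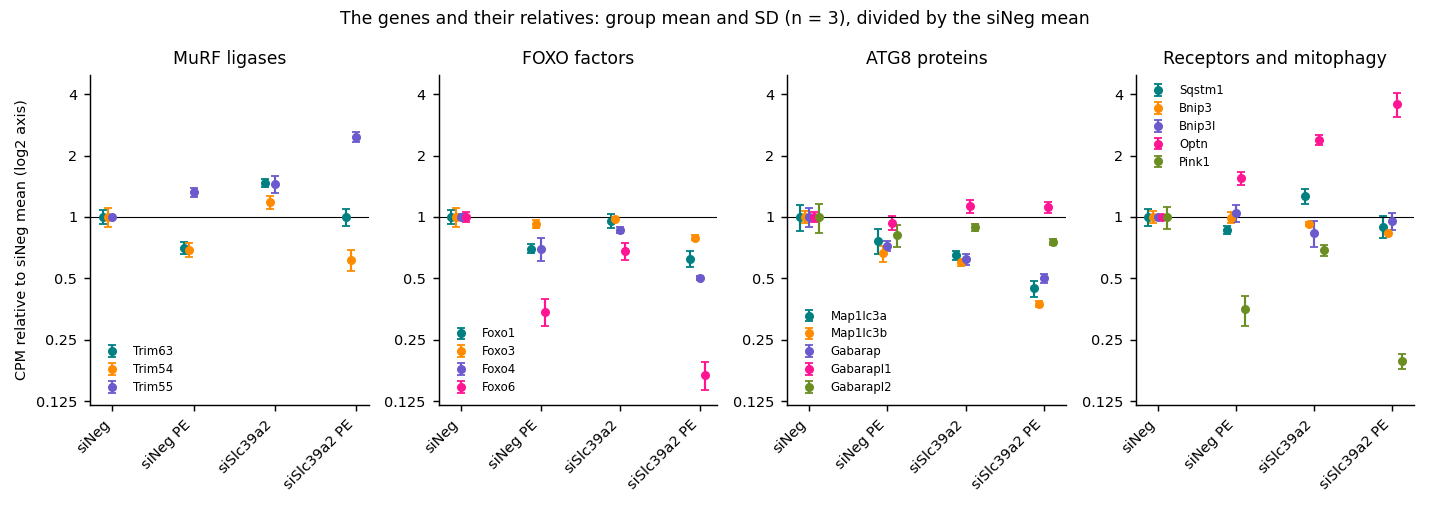
Group means of 7 of the 10 genes, their relatives, Optn and Pink1, with the SD (n = 3), in CPM divided by the siNeg mean of the same gene on a log2 axis. Trim55 and Optn lie above 1 in all other groups, while Foxo6, Pink1, Map1lc3a, Map1lc3b and Gabarap lie below 1 in all other groups.

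A set of 8 lists held 154 tested genes of these pathways, the members included where they belong. Of 17 muscle ubiquitin ligases, PE called 2 higher and 8 lower in siNeg cells, where 24.0% of all genes were called higher and 25.7% lower. In knockdown cells PE called 3 higher and 10 lower, with 30.7% and 29.3% of all genes. Knockdown called 5 higher and 3 lower without PE, with 22.8% and 26.4% of all genes, and 4 and 6 with PE, with 29.2% and 28.1%. Mdm2, the ligase of p53, rose with knockdown (log2 0.77, SE 0.10), and Asb2 fell with PE in siNeg cells (-0.66, SE 0.07, counts not whole). Fbxo30, a ligase known from denervated muscle, was called higher in all 4 comparisons, from 11.7 CPM in siNeg to 35.5 in siSlc39a2 PE (counts not whole).

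The initiation genes of autophagy were mostly lower with PE. Of 19 tested, PE called 3 higher and 14 lower in siNeg cells, where 24.0% of all genes were called higher and 25.7% lower, and again 3 higher and 14 lower in knockdown cells, where 30.7% and 29.3% were, with medians of -0.28 and -0.29. Knockdown called 4 higher and 4 lower without PE and 5 and 5 with PE, near the shares of all genes (22.8% and 26.4%, then 29.2% and 28.1%). Ulk1 and the phosphoinositide-binding Wipi1 had the largest changes with PE in siNeg cells (Wipi1 -0.71, SE 0.06, counts not whole), while Rb1cc1, a partner of ULK1, rose with knockdown (log2 0.77, SE 0.15, counts not whole). Becn1 was thus among the minority of this list that rose with PE.

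The LC3 and GABARAP conjugation list and the receptor list are given beside the shares of all genes called higher and lower, which were 24.0% and 25.7% for PE in siNeg cells, 30.7% and 29.3% for PE in knockdown cells, 22.8% and 26.4% for knockdown, and 29.2% and 28.1% for knockdown with PE. Of 15 conjugation genes, PE called 3 higher and 5 lower in siNeg cells and 4 and 6 in knockdown cells, and knockdown called 5 and 3 without PE and 8 and 5 with PE. Atg4c, a protease that processes ATG8 proteins, rose with PE in siNeg cells (log2 0.77, SE 0.13) and with knockdown (0.72, SE 0.13). Of 18 receptor and mitophagy genes, PE called 5 higher and 3 lower in siNeg cells and 6 and 5 in knockdown cells, and knockdown called 6 and 4 without PE and 7 and 5 with PE. Several of these counts were near the shares of all genes, and nothing is read from them about the lists. Tbk1, the kinase that phosphorylates optineurin and p62, rose with knockdown (log2 0.94, SE 0.16).

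Genes for the lysosome and its TFEB factors and genes of mTORC1 are set beside the same all-gene shares. These were 24.0% higher and 25.7% lower for PE in siNeg cells, and 30.7% and 29.3% for PE in knockdown cells. For knockdown they were 22.8% and 26.4% without PE, and 29.2% and 28.1% with PE. Of 27 lysosomal and TFEB genes, PE called 3 higher and 14 lower in siNeg cells and 5 and 16 in knockdown cells, and knockdown called 2 and 10 without PE and 5 and 12 with PE. Ctsd, the lysosomal protease cathepsin D, had group means of 911 CPM in siNeg and 340.0 in siSlc39a2 PE, and fell with knockdown under PE (log2 -0.92, SE 0.08). Lamp1, a protein of the lysosomal membrane, fell with knockdown (-0.78, SE 0.05, counts not whole). Of 21 genes of mTORC1 and its inhibitors, PE called 1 higher and 9 lower in siNeg cells and 2 and 12 in knockdown cells, and knockdown called 2 and 10 without PE and 2 and 12 with PE. Ddit4l, an inhibitor of mTORC1, fell from 22.2 CPM in siNeg to 6.82 with PE (log2 -1.70, SE 0.19) and from 10.5 to 2.30 CPM in knockdown cells (log2 -2.19, SE 0.21).

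The FOXO factors with their upstream genes, and the FOXO targets, were compared with all genes in the same way (24.0% higher and 25.7% lower for PE in siNeg cells, 30.7% and 29.3% for PE in knockdown cells, 22.8% and 26.4% for knockdown, 29.2% and 28.1% for knockdown with PE). The difference between these lists was not tested. Of 22 FOXO and upstream genes, PE called 13 higher and 6 lower in siNeg cells and 12 and 6 in knockdown cells, and knockdown called 8 and 4 without PE and 11 and 5 with PE. Prkaa2, the catalytic AMPK subunit that phosphorylates FOXO3 and ULK1, rose from 38.5 CPM in siNeg to 78.9 with PE and 95.6 with knockdown, and was at 185 in siSlc39a2 PE. Sgk1, a kinase that phosphorylates FOXO factors as AKT does, rose with knockdown (log2 1.07, SE 0.08). Of 25 FOXO targets, 5 of which are members, PE called 3 higher and 13 lower in siNeg cells and 5 and 15 in knockdown cells, and knockdown called 6 and 8 without PE and 7 and 9 with PE. Pik3ip1, an inhibitor of PI3K, fell with PE from 150.2 to 59.7 CPM in siNeg cells (log2 -1.33, SE 0.10) and from 107 to 28.5 CPM in knockdown cells (log2 -1.91, SE 0.10). Bcl2l11, the gene of the cell death protein BIM, fell by -1.03 (SE 0.10) and -1.81 (SE 0.10) on the log2 scale in the same comparisons, while Gadd45a rose with knockdown (1.02, SE 0.09).

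**Figure D5:**
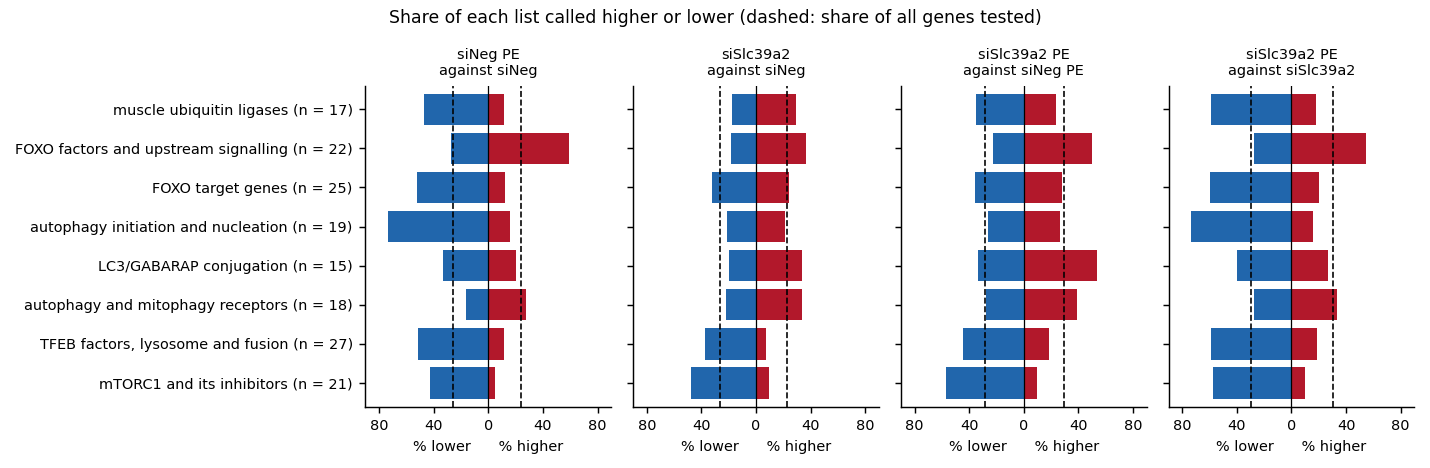
Percent of each gene list called higher (right, red) or lower (left, blue) at an adjusted p below 0.05 in the 4 comparisons, with n as the genes tested. Dashed lines mark the shares of all genes tested, such as 24.0% higher and 25.7% lower for PE in siNeg cells, and the initiation list reaches farthest to the left in both PE comparisons.

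The genes with the profile most like a member were looked up among 7990 genes with whole counts and a mean log2 CPM above 1, by Pearson's r of log2 CPM over the 12 samples. For Fbxo32 they were Thrb (0.959), Cog5 (0.938) and Znf408 (0.929). For Trim63 they were Akr1b1 (0.988), Uqcc3 (0.985) and Psme1 (0.982), and Psme1 went from 508 CPM in siNeg to 303 with PE, and from 956 CPM in siSlc39a2 to 612 with PE. For Sqstm1 they were Cybc1 (0.983), Keap1 (0.973) and Mrpl15 (0.970). For Foxo1 they were Bicra (0.980), RGD1304963 (0.963) and Pyroxd2 (0.962), and for Gabarapl1 they were Rab8a (0.970), Vps26c (0.963) and Mrpl17 (0.959).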

How the data were processed

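RNA of 12 NRVM cultures, stated by the study to be independent biological replicates, was sequenced. The authors deposited expected counts per gene, not normalized, and FPKM values of the same genes, normalized to gene length and library size. HISAT, Bowtie2 and the build Rnor_6.0 are named in the submitters' processing notes, and the counting program is not given in the sources used here. Of the genes, 70.0% had whole counts in every sample, and genes with other counts, which can come from shared reads, are given as uncertain. Expected counts were rounded, kept by filterByExpr (13967 genes), normalized by TMM and fitted in 1 model of 4 groups (8 residual degrees of freedom) with edgeR 4.0.16 in R 4.3.3. Intervals at 95% are not adjusted. Log2 CPM used a prior count of 2. Alternatives were DESeq2 1.42.0, RLE size factors, no filter, the groups of a comparison alone, a replicate block, limma 3.58.1 after quantile normalization on log2(FPKM + 1) and log2(FPKM + 0.1), an absolute log2 fold change above 1 as well, and leaving out each sample. Fits were tested on simulated data. The genes and lists were chosen with earlier results of these data known. All 10 members were named, and from each further list up to 2 genes with the largest changes per comparison. Relatives of members and the genes of the closing section were named outside that rule, the latter after their values were seen. The list genes Atg2b and Calcoco2 were not analysed here.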

Additional observations from a re-analysis of the deposited data

Results flagged for a closer look

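The effect of the knockdown on Ulk1 passed the test of a difference between cells with and without PE when all 12 samples were used, and no longer passed when any of 9 of them was left out (adjusted p between 0.0682 and 0.120). The knockdown effect with PE less that without PE was -0.45 on the log2 scale (SE 0.11, edgeR adjusted p = 0.0427). Ulk1 was lower with knockdown in all 3 samples of both arms. Over the alternatives other than leaving out a sample, the interaction lay between -0.56 and -0.45 and its adjusted p between 0.00351 and 0.0541.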

How the results depend on the processing

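Counts of called genes among the 10 were 6 for PE in siNeg cells, 6 for knockdown, 7 for knockdown with PE and 8 for PE in knockdown cells. They stayed within 1.5 times of these values under DESeq2, RLE size factors, no filter, the groups of a comparison alone and both limma fits, and lay between 5 and 7, 5 and 7, 5 and 7, and 8 and 8 when 1 sample was left out. With an absolute log2 fold change above 1 as well they were 0, 0, 0 and 1, and 0 for the interaction. The interaction count was 1, and was 3 in limma on log2(FPKM + 1) (Ulk1, Map1lc3b at -0.23 and Bnip3 at -0.23), 0 in limma on log2(FPKM + 0.1), and between 0 and 1 without 1 sample. Of 700 log2 fold changes recomputed for single genes, 623 kept direction and side of the threshold, 20 lost the call, 16 gained it and 41 turned in sign.

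All signs that turned belonged to values that had not passed the test. In limma on log2(FPKM + 1) and log2(FPKM + 0.1), Bnip3 for PE in siNeg cells was 0.11 and 0.11, the first past the test (adjusted p = 0.0342), Fbxo32 for knockdown with PE was -0.15 and -0.17, Gabarapl1 for PE in siNeg cells was 0.0081 and 0.0082, its interaction was -0.012 and -0.013, and the Becn1 interaction was -0.060 and -0.063. The Becn1 interaction was also -0.020 with DESeq2, -0.020 with RLE size factors and -0.037 with no filter. Bnip3 for PE in siNeg cells was 0.0092 and Foxo3 for knockdown was 0.015 with no filter, and they were 0.0090 and 0.0052 with the groups of the comparison alone. The cause was not tested. Without 1 sample the ranges were -0.049 to 0.037 for the Becn1 interaction, -0.064 to 0.043 for Bnip3 with PE in siNeg cells, -0.15 to 0.098 for Fbxo32 and -0.039 to 0.14 for Sqstm1 with knockdown under PE, -0.12 to 0.039 for Foxo1 and -0.11 to 0.038 for Foxo3 with knockdown, -0.032 to 0.14 for the Gabarapl1 interaction, -0.11 to 0.020 for Gabarapl1 with PE in knockdown cells, and -0.14 to 0.025 for the Trim63 interaction.

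The replicate numbers did not pair the samples by the rule used, since the correlation of same-numbered deviations from the group means was under 0.1 for at least 1 pair in every comparison (between -0.090 and 0.32). The mean over same-numbered pairs was 0.19 for PE in siNeg cells and 0.15 for knockdown with PE. It was 0.006 for knockdown without PE and 0.05 for PE in knockdown cells. The rule does not tell partial pairing from none. With the replicate block, 7, 7, 7 and 9 genes were called, and 2 for the interaction (Ulk1, and Sqstm1 at -0.29, adjusted p = 0.0420). With 3 samples per group, calls near the threshold depended on single samples.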

Other observations

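Of the 154 pathway genes tested, 9 had an unequal knockdown effect with and without PE at an adjusted p below 0.05 by edgeR, Ulk1 included, where 3.61% of all genes tested did. These 9 were singled out after their values were seen. Negative interactions, a knockdown effect that was lower with PE than without, were found for Bcl2l11 (-0.78, SE 0.14), Ccng2 (-0.76, SE 0.13), Sesn2 (-0.64, SE 0.12, counts not whole), Ddit4 (-0.64, SE 0.15), Pik3ip1 (-0.57, SE 0.13), Fbxo40 (-0.51, SE 0.09) and Ulk1. Sesn2 and Ddit4 encode stress-induced inhibitors of mTORC1, Ccng2 encodes a cyclin known as a FOXO target, and Fbxo40 encodes a muscle F-box protein that acts on IRS1. Positive interactions were found for Stbd1 (0.49, SE 0.12), a glycogen-binding autophagy receptor, and Igf1r (0.42, SE 0.10), the IGF-1 receptor.

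Tnfsf10, the gene of the death ligand TRAIL and a known FOXO target, had at most 1 count in every siNeg and siNeg PE sample. Its mean level was 6.43 ± 0.431 CPM in siSlc39a2 and 2.64 ± 0.513 CPM in siSlc39a2 PE (SD, n = 3). Against a floor of 3 counts per library, it was at least 54.3-fold higher with knockdown without PE and at least 23.9-fold higher with PE.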
